A study of Homo sapiens with 14 samples.

Results

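Ubiquitylated histone H2A (uH2A) was mapped by chromatin immunoprecipitation and sequencing (ChIP-seq) with a rabbit and a mouse antibody in control DU145 cells, an established human prostate cancer line. These are 2 of the 14 libraries of the series, chosen by their labels as the uH2A libraries of control cells, with no measured value in the rule. The other antibodies of the series were EED, RING1A, RING1B, BMI1 and H3K27me3, and the 7 libraries from EED knockdown cells were not used. The rabbit and mouse libraries hold 60956 peaks, 27077 in the rabbit and 33879 in the mouse library, of 191347 peaks in the 7 control libraries. The control cells carried a stable scramble construct and were kept under puromycin selection, in RPMI 1640 with serum. The rabbit antibody came from Cell Signaling and the mouse antibody from Millipore. With a single library for each antibody, differences between them have no replicates behind them. The 95% intervals given cover counting error only and treat peaks as independent. Sequencing depth is unknown. The lists give positions on hg19 and no genes, so regions are named by position, and the cell line could not be checked against marker genes.

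The uH2A mark is placed by RING1A and RING1B, the ubiquitin ligases of Polycomb repressive complex PRC1, in which BMI1 is a partner of the ligases. PRC2, with its core subunit EED, places the H3K27me3 mark, and PRC1 can reach chromatin both through that mark and without it. In many cell types uH2A is found at repressed genes and, more thinly, over wide stretches of chromatin.

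The mouse library had more peaks and the rabbit library longer ones. The ratio of rabbit to mouse peaks was 0.799 (exact interval 0.787 to 0.812), while rabbit peaks covered 6.10 Mb and mouse peaks 5.81 Mb, a ratio of 1.05. The median length was 175 bp for rabbit peaks (quartiles 125 and 275 bp) and 150 bp for mouse peaks (quartiles 100 and 200 bp). The longest rabbit peak had 5750 bp and the longest mouse peak 2525 bp, and 215 rabbit and 58 mouse peaks reached 1000 bp. The shortest length listed, 75 bp, made up 12.7% of rabbit and 19.9% of mouse peaks. The lead of the rabbit library in covered length rested on how peaks were joined: with peaks within 1000 bp merged, gaps included, the ratio was 0.940.

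Most peaks of either antibody were private, meaning that they had no base in common with a peak of the other. Of rabbit peaks, 28.3% were shared (7652 of 27077, Clopper-Pearson interval 27.7 to 28.8), and 19425 were private. Of mouse peaks, 23.4% were shared (7936 of 33879, interval 22.97 to 23.9), and 25943 were private. The lists differ in length. At equal numbers of peaks 25.3% of rabbit (24.8 to 25.9) and 25.9% of mouse peaks were shared (25.4 to 26.4). With equal numbers these shares can differ only through peaks that meet several of the other list, so no order is read from them. Merging the lists gave 52829 separate regions, of which 7461 (14.1%) held a peak of both. The bases in peaks of both lists came to 1.26 Mb, which is 20.6% of the rabbit and 21.7% of the mouse covered length. For scale, rabbit peaks covered 0.203% and mouse peaks 0.193% of the 3010 Mb spanned by the control lists.

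Where the antibodies met, they usually met as single peaks. Among the shared regions 6897 held 1 rabbit and 1 mouse peak. A minority of 418 rabbit peaks met several mouse peaks, at most 7, and 180 mouse peaks met several rabbit peaks, at most 4. The 8127 overlapping pairs had a median of 125 bp in common, and their midpoints lay a median of 62.5 bp apart (quartiles 25 and 112.5 bp). The rabbit peak was the longer in 57.6% of pairs and the mouse peak in 35.6%. Both ends coincided in 90 pairs. In 4006 pairs (49.3%) the overlap took in at least 50% of both peaks.

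Heights of paired peaks ranked only loosely alike. Height is the authors' value for a peak and is not scaled between libraries, so it was used as a rank within each list. Across the 8127 pairs Spearman's rho was 0.20 for height and 0.14 for length, as a description over pairs that share local chromatin. The rabbit member fell in the tallest 25% of its list in 3186 pairs and the mouse member in 3419. Both members did so in 1614 pairs (19.9%). A rabbit peak of its tallest 25% met a mouse peak of its lowest 25% in 360 pairs, and the reverse occurred in 363.

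Taller peaks were shared more often with either antibody. The tallest 25% of rabbit peaks, with heights from 45.1 to 2208, were shared at 41.7% (interval 40.6 to 42.9), and the lowest 25%, with heights from 19 to 32.1, at 18.1% (17.2 to 19.05). The classes in between had 22.8% and 30.4%. For the rabbit library the tallest class thus exceeded the lowest by 23.6 percentage points (Newcombe interval 22.1 to 25.1). The mouse library had 38.7% (37.6 to 39.7) in its tallest class and 14.1% (13.4 to 14.9) in its lowest, with 17.6% and 23.4% between. Its difference was 24.6 points (23.3 to 25.8).

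Length moved with height, and longer peaks were shared more often too. Rabbit peaks of 75 bp were shared at 16.2%, those of 200 to 375 bp at 33.9% and those of at least 800 bp at 61.2% (263 of 430). Mouse peaks of 75 bp were shared at 13.1%, those of 200 to 375 bp at 33.8% and those of at least 800 bp at 85.3% (116 of 136). The libraries were thus close at 200 to 375 bp and parted among the longest peaks, where more rabbit peaks had no mouse partner. Of peaks of 1000 bp or more, 138 of 215 rabbit peaks were shared, against 50 of 58 mouse peaks. Among rabbit peaks of 200 to 375 bp, 37.7% of those in the tallest height class were shared and 21.9% of those in the lowest. Among mouse peaks of that length these were 37.6% and 22.4%. At 100 to 175 bp height did not separate rabbit peaks, with 20.0% (26 of 130, 13.5 to 27.9) in the tallest class and 19.4% in the lowest. Mouse peaks of that length had 24.3% and 15.5%. The other length classes held few peaks in the tallest or the lowest height class. All peaks were also cut to 200 bp about their midpoint, with shorter peaks padded to that length. The difference between tallest and lowest class was then 16.5 points for rabbit and 19.3 for mouse. With an overlap of at least 50% of the peak it was 9.71 points for rabbit and 16.6 for mouse.

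**Figure D1:**
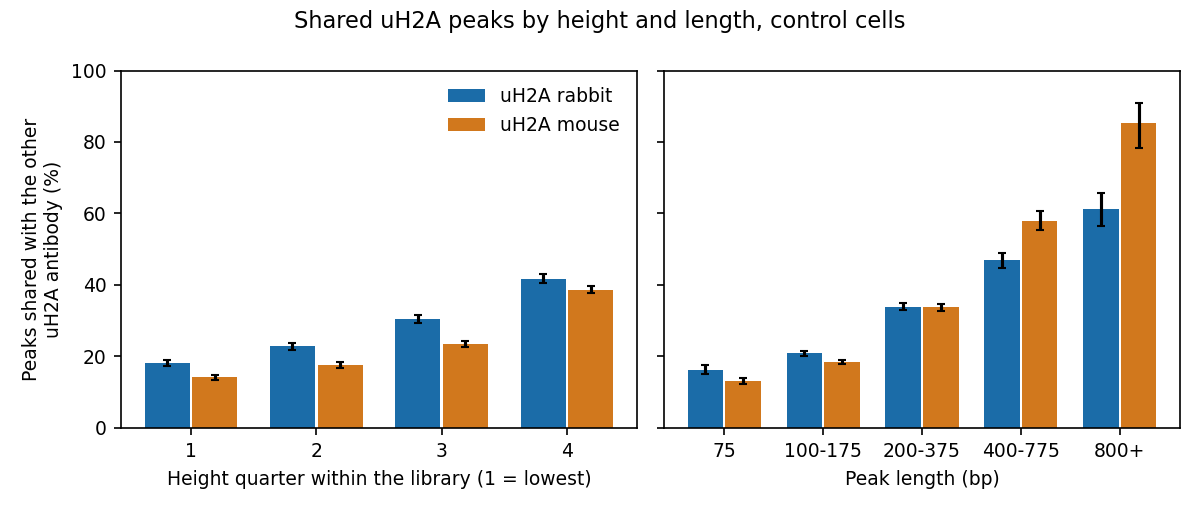
Share of uH2A peaks (%) that have at least 1 bp in common with a peak of the other antibody, by height class of 25% within the library (left) and by peak length in bp (right); bars are rabbit and mouse control libraries, whiskers 95% Clopper-Pearson intervals. Shares climb with height in both libraries, to 41.7% for rabbit and 38.7% for mouse, and mouse peaks of at least 800 bp reach 85.3% against 61.2% for rabbit.

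Shared peaks were accordingly longer and taller than private ones in their own list. The median length was 225 bp for shared and 175 bp for private rabbit peaks, and 200 bp for shared and 125 bp for private mouse peaks. The median height was 40.2 for shared and 35.2 for private rabbit peaks, and 40.1 for shared and 36.3 for private mouse peaks. Private peaks nevertheless reached heights of 297 in the rabbit and 234 in the mouse library.

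Many private peaks lay close to a peak of the other antibody without touching it. The median gap was 5875 bp for private rabbit peaks (quartiles 1275 and 26200 bp) and 8025 bp for private mouse peaks (quartiles 1500 and 37238 bp). That order was lost when only as many of the tallest mouse peaks were kept as there are rabbit peaks. The medians were then 8175 bp for rabbit (7900 to 8525) and 7750 bp for mouse peaks (7450 to 8125), with overlapping intervals. Within 1000 bp of a mouse peak lay 21.8% of private rabbit peaks (21.2 to 22.3), and within 1000 bp of a rabbit peak lay 19.9% of private mouse peaks (19.4 to 20.4). Counting these as matched, 43.9% of all rabbit and 38.7% of all mouse peaks had a partner, each over 1.5-fold the share that overlapped. At the other end, 2080 private rabbit peaks (10.7%) and 3381 private mouse peaks (13.0%) lay over 100 kb from any peak of the other. Peaks at the edge of the definition resembled each other. The 302 rabbit peaks with 25 bp in common with mouse peaks had a median height of 33.3 and length of 125 bp, and the 415 with a gap of at most 25 bp had 34.2 and 150 bp. For mouse peaks these were 36.1 and 125 bp over 331 peaks inside, and 36 and 125 bp over 466 peaks outside.

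**Figure D2:**
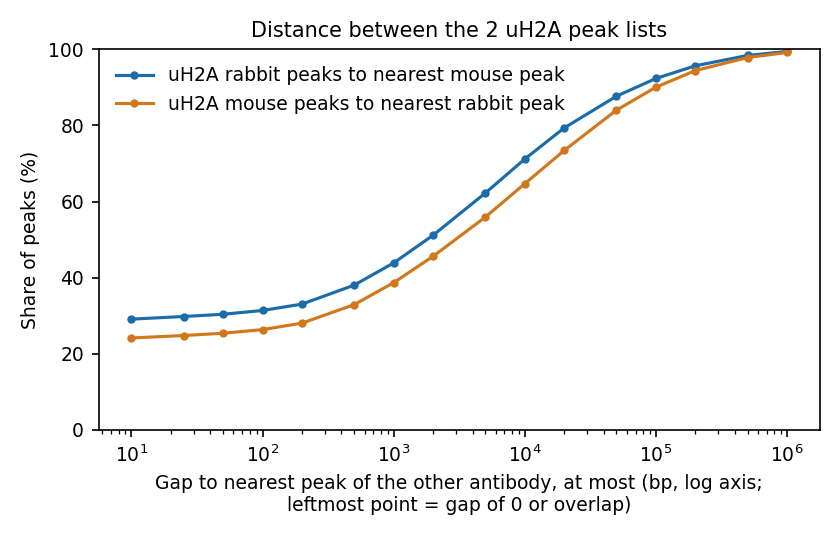
Cumulative share of uH2A peaks (%) by the gap in bp to the nearest peak of the other antibody, on a log axis, for rabbit and mouse control peaks; the leftmost point holds overlapping and adjoining peaks. Both curves stay nearly flat to 100 bp and then climb, to 43.9% for rabbit and 38.7% for mouse at 1000 bp and to 71.1% and 64.7% at 10000 bp. The rabbit curve lies above in these full lists, which differ in length, while at equal numbers of peaks the overlapping share was 25.3% for rabbit and 25.9% for mouse.

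Peaks of the same antibody also gathered, shared ones more than private ones. A shared rabbit peak lay a median of 1775 bp from the next rabbit peak, against 3800 bp for a private rabbit peak. A shared mouse peak lay 1150 bp from the next mouse peak, against 3325 bp for a private mouse peak. Windows of 100 kb are far longer than peaks, so the antibodies meet in them more easily than peak by peak. Of 11173 windows with a uH2A peak, 5521 (49.4%) held peaks of both, 2202 held rabbit peaks only and 3450 mouse peaks only. Over windows with both, Spearman's rho of the covered lengths was 0.55, as a description of windows that share density and base composition. Among the 426 windows with at least 5000 bp covered by the lists together, 424 held both. Windows picked for so much covered length tend to hold both, so no agreement is read from this. Rabbit peaks covered over 3 times the mouse length in 53 of them and mouse peaks over 3 times the rabbit length in 13.

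The chromosomes were populated in nearly the same order by both antibodies, with exceptions. Over the 22 autosomes, peaks per Mb had a Spearman's rho of 0.96 between the libraries, again as a description. Mouse peaks outnumbered rabbit peaks on 20 of 22 autosomes, although rabbit peaks covered more bases on 16. Chromosome 14 stood furthest to the mouse side, with 1929 rabbit and 3342 mouse peaks, a ratio of 0.577 (exact interval 0.545 to 0.611). It took 7.12% of all rabbit and 9.86% of all mouse peaks, and also 9.84% of EED, 11.9% of RING1A, 15.4% of RING1B, 16.0% of BMI1 and 4.92% of H3K27me3 control peaks. On chromosome 5 the ratio was 0.618 (1607 rabbit, 2602 mouse), on chromosome 18 it was 0.630 (740 and 1174), on chromosome 6 it was 0.672 (937 and 1394) and on chromosome 9 it was 0.703 (1754 and 2495). Chromosomes 2 and 13 had more rabbit peaks, with 1294 rabbit and 1216 mouse peaks on chromosome 2 (ratio 1.06, 0.983 to 1.15) and 285 and 172 on chromosome 13 (ratio 1.66, 1.37 to 2.01). These chromosomes were named after their values were seen. Copy number differs between chromosomes in cancer lines, and its part in these counts was not tested.

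**Figure D3:**
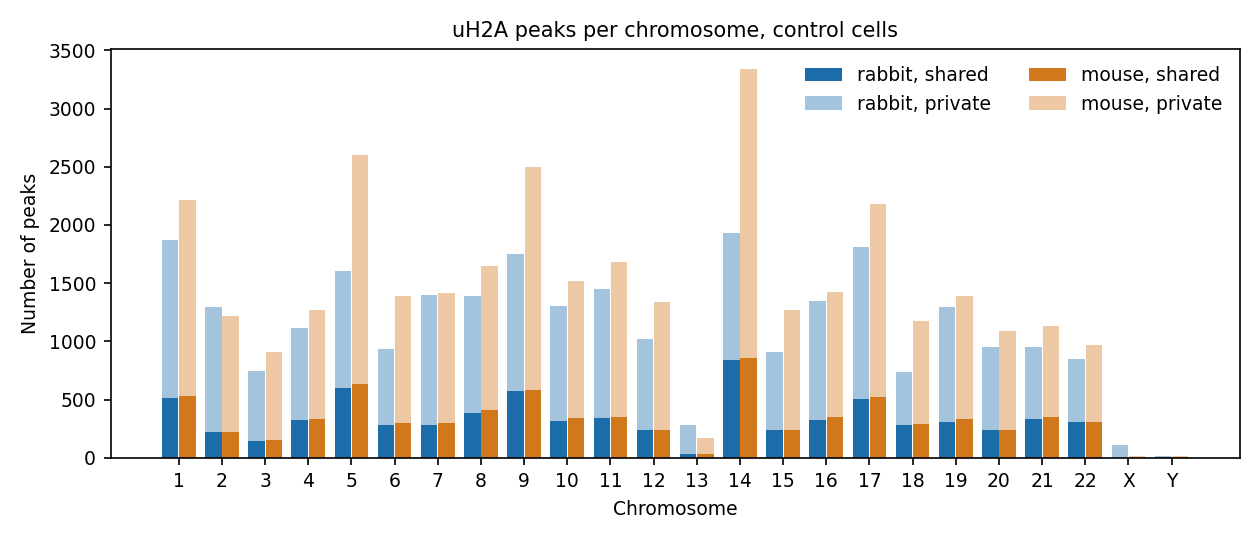
Number of uH2A peaks on each chromosome in control cells, rabbit bar left of the mouse bar, with peaks shared with the other antibody in full colour and private peaks in pale colour. Chromosome 14 has the tallest mouse bar, 3342 peaks, most of them private, and chromosome X holds 109 rabbit and 16 mouse peaks.

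Across the autosomes the shared share of rabbit peaks ran from 11.2% to 43.4% and that of mouse peaks from 16.6% to 31.8%. On chromosome 14, 43.4% of rabbit peaks were shared (41.2 to 45.7), on chromosome 18 it was 37.97% and on chromosome 5 it was 37.5%, and chromosome 13 was lowest (7.81 to 15.5). In the mouse list chromosome 14 had 25.6%, chromosome 18 had 24.6%, chromosome 5 had 24.4% and chromosome 13 had 20.9%. The mouse share was highest on chromosome 22, at 31.8% (28.9 to 34.9), and chromosome 21, at 30.7% (28.1 to 33.5), where rabbit peaks were shared at 35.8% and 35.1%.

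Chromosome X carried mostly rabbit peaks, with 109 rabbit and 16 mouse peaks, a ratio of 6.81 (exact interval 4.01 to 12.3). Only 2 peaks of each list were shared there. Of the rabbit peaks, 30 lay in 1 block of 18125 bp at chrX:30806651-30824775 and made up 43.6% of the rabbit length on the chromosome. They were long, with a median of 325 bp and up to 1100 bp, but low, with heights from 20 to 50.2 and a median of 29.0, and 3 of 30 were in the tallest 25% of the library. The nearest mouse peak was 15112925 bp away. An EED peak lay on 1 of the 30, and peaks of RING1A, BMI1 or H3K27me3 on 0. Outside the block chromosome X held 79 rabbit and 16 mouse peaks, a ratio of 4.94 (2.86 to 9.06).

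The other control lists gave a measure that the sharing did not use. Of all rabbit peaks, 23.1% lay on an EED, 28.9% on a RING1A, 2.10% on a RING1B, 15.8% on a BMI1 and 10.1% on an H3K27me3 peak. Of all mouse peaks these were 13.0%, 44.0%, 2.82%, 16.9% and 4.94%, in the same order. Shared uH2A peaks lay above this background for EED and all 3 PRC1 proteins in either list, and for H3K27me3 clearly so in the mouse list only. EED was made in the same set of libraries as both uH2A antibodies, while RING1A, RING1B, BMI1 and H3K27me3 belong to another set with its own culture description. Their antibodies are all rabbit antibodies from Cell Signaling, per the labels.

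RING1A has the most peaks of the 5 lists, with 56011 peaks over 9.07 Mb against 13082 peaks over 2.13 Mb for EED, so shares of different proteins are not ranked here. It was present at 62.3% of shared (61.2 to 63.4) and 15.8% of private rabbit peaks (15.3 to 16.3), a difference of 46.5 points (45.3 to 47.7). In the mouse list it was present at 60.4% of shared and 38.9% of private peaks, a difference of 21.4 points (20.2 to 22.6). BMI1 followed the same pattern, with 34.7% of shared and 8.38% of private rabbit peaks (26.3 points, 25.2 to 27.5) and 33.4% of shared and 11.8% of private mouse peaks (21.6 points, 20.5 to 22.7). RING1B, whose list is short, lay on 5.55% of shared and 0.736% of private rabbit peaks, and on 5.42% of shared and 2.02% of private mouse peaks. All 3 PRC1 proteins met on 409 of 7652 shared and 73 of 19425 private rabbit peaks. In the mouse list they met on 418 of 7936 shared and 480 of 25943 private peaks. In both lists the share was larger at shared peaks.

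EED, the PRC2 subunit, lay on 37.96% of shared (36.9 to 39.1) and 17.3% of private rabbit peaks (16.8 to 17.9), a difference of 20.7 points (19.4 to 21.9). It lay on 36.1% of shared and 5.91% of private mouse peaks, a difference of 30.2 points (29.1 to 31.3). H3K27me3 differed little between shared and private peaks in the rabbit list and more in the mouse list. In the rabbit list 10.8% of shared and 9.85% of private peaks carried it, a difference of 0.973 points whose interval (0.173 to 1.80) came near 0. It spanned 0 with uH2A peaks cut to 200 bp (0.614 points, -0.182 to 1.44) and without chromosome 14 (0.659 points, -0.171 to 1.52). In the mouse list 10.5% of shared and 3.24% of private peaks carried it, a difference of 7.27 points (6.58 to 7.996).

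**Figure D4:**
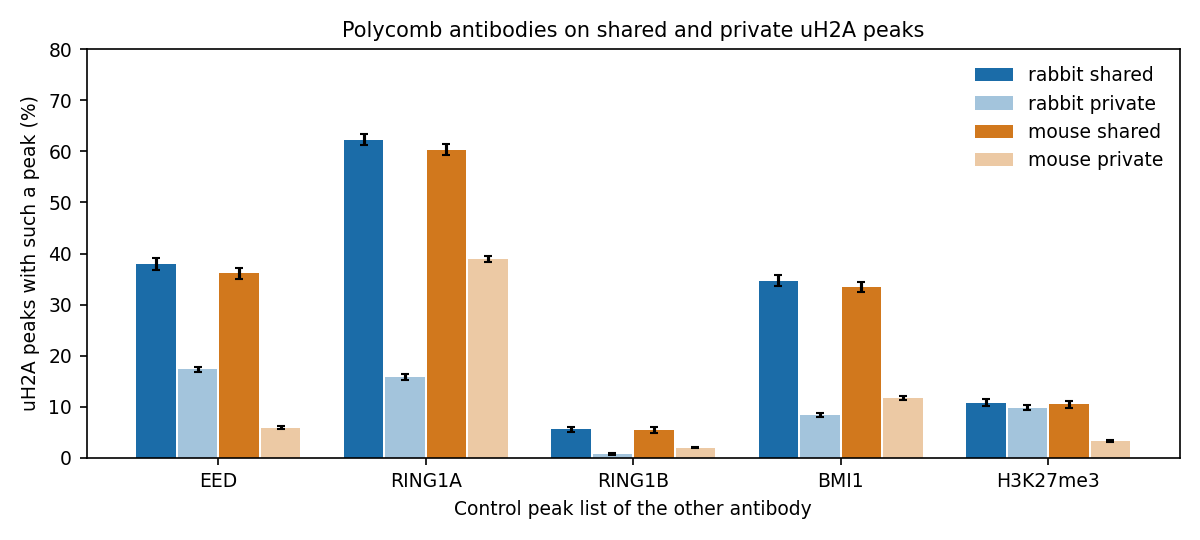
Share of uH2A peaks (%) that have at least 1 bp in common with a control peak of EED, RING1A, RING1B, BMI1 or H3K27me3, for rabbit shared, rabbit private, mouse shared and mouse private peaks; whiskers are 95% Clopper-Pearson intervals. Private peaks differ between the antibodies, with EED on 17.3% of rabbit and 5.91% of mouse peaks and RING1A on 15.8% of rabbit and 38.9% of mouse peaks.

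The private peaks of the antibodies thus differed in the proteins found with them. Set directly against each other, private rabbit peaks lay on EED more often than private mouse peaks by 11.4 points (10.8 to 12.01) and on H3K27me3 more often by 6.61 points (6.14 to 7.09). They lay on RING1A less often by 23.1 points, with a difference of -23.1 (-23.9 to -22.3). Over all private peaks the differences for BMI1 and RING1B were -3.42 points (-3.97 to -2.87) and -1.28 points (-1.49 to -1.07). On each of the 22 autosomes the private rabbit share was the higher for EED, by 6.63 to 17.4 points, and for H3K27me3, by 2.73 to 11.9 points. For RING1A it was the lower on 22 of 22, with differences from -37.5 to -9.41 points. For BMI1 the sign was split, 11 autosomes each way. For RING1B the private rabbit share was the lower on 17 autosomes and the higher on 4, with a median difference of -0.275 points. Without chromosome 14 the RING1A difference was -21.4 points.

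Combinations showed the same contrast. EED without RING1A was found on 13.6% of private rabbit peaks (13.1 to 14.1) and 1.84% of private mouse peaks (1.68 to 2.01). RING1A without EED was found on 12.1% of private rabbit peaks and 34.9% of private mouse peaks. EED and RING1A together lay on 3.69% of private rabbit and 4.07% of private mouse peaks, far below the 29.2% of shared rabbit and 27.2% of shared mouse peaks. H3K27me3 with none of the other 4 was found on 6.72% of private rabbit and 1.52% of private mouse peaks. None of the 5 lists had a peak at 61.5% of private rabbit and 56.0% of private mouse peaks, against 24.01% of shared rabbit and 25.6% of shared mouse peaks.

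The contrast between private peaks grew with uH2A height, and also with length, which rose with height. Private rabbit minus private mouse was 3.57 points at 75 bp and 27.2 at 400 to 775 bp for EED. For RING1A it was -12.8 and -67.6 points. Length was not held fixed in the values by height that follow. In the tallest 25% of the rabbit list EED lay on 40.4% of private peaks, against 13.0% of private mouse peaks in the tallest 25% of their list, a difference of 27.4 points (25.6 to 29.1). In the lowest 25% these were 7.85% of private rabbit and 3.28% of private mouse peaks, 4.56 points apart (3.76 to 5.39). RING1A lay on 17.7% of private rabbit and 64.6% of private mouse peaks in the tallest classes, a difference of -46.9 points (-48.6 to -45.1), and on 13.8% and 26.7% in the lowest, a difference of -12.8 points (-14.2 to -11.5). The RING1A share of private rabbit peaks was 13.8%, 14.3%, 18.1% and 17.7% from the lowest to the tallest class, and that of private mouse peaks 26.7%, 31.9%, 39.7% and 64.6%. BMI1 lay on 14.6% of private rabbit and 26.2% of private mouse peaks in the tallest classes, a difference of -11.5 points (-13.2 to -9.91), against -1.18 points (-2.02 to -0.321) in the lowest. For RING1B the shares in the tallest classes were 1.12% of private rabbit and 5.602% of private mouse peaks, a difference of -4.49 points (-5.20 to -3.78). Of the 20 private mouse peaks of at least 800 bp, 20 lay on RING1A and 7 on EED, whereas of the 167 private rabbit peaks of that length 28 lay on RING1A and 139 on EED.

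**Figure D5:**
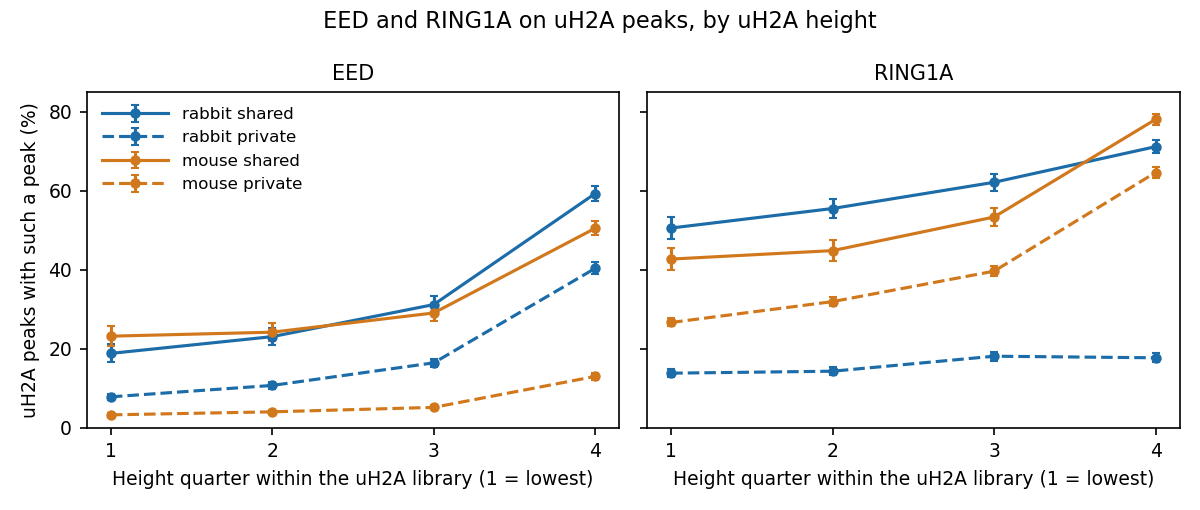
Share of uH2A peaks (%) on a control EED peak (left) and on a control RING1A peak (right) by height class of 25% within the uH2A library, for shared (solid) and private (dashed) peaks of the rabbit and mouse antibodies; whiskers are 95% Clopper-Pearson intervals. On the right, private rabbit peaks stay between 13.8% and 18.1% while private mouse peaks reach 64.6%, and on the left private rabbit peaks reach 40.4% and private mouse peaks 13.0%.

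The excess at shared peaks was also measured among peaks of like height. Within each of the 4 height classes, shared peaks exceeded private peaks for RING1A by 36.7 to 53.4 points in the rabbit list and by 12.9 to 16.1 points in the mouse list. For EED the excess was 11.0 to 18.9 points in the rabbit and 19.9 to 37.5 points in the mouse list. For H3K27me3 in the rabbit list the difference was below 0 in 3 classes, with intervals that span 0, and 2.98 points (1.34 to 4.64) in the tallest class. In the mouse list it was 5.88 to 8.45 points. RING1B in the mouse list differed between shared and private peaks in the tallest class only, by 6.16 points (4.91 to 7.45). In the other 3 classes of the mouse list its intervals spanned 0, with differences from -0.415 to 0.00044 points. In the rabbit list RING1B was 3.31 to 6.60 points higher at shared peaks in every class. By length class instead, the RING1A excess was 38.3 to 60.4 points in the rabbit list. In the mouse list it was 11.5 to 14.5 points up to 375 bp and 4.99 points at 400 to 775 bp. Among mouse peaks of at least 800 bp it was -0.862 points, with 99.1% of shared and 100% of private peaks on RING1A.

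Private peaks near a peak of the other antibody differed from those far away, though not for every protein. Of private rabbit peaks within 1000 bp of a mouse peak, 24.9% lay on RING1A, against 10.0% of those over 10000 bp away, a difference of 14.9 points (13.4 to 16.4). For EED the private rabbit shares were 15.6% near and 18.3% far, a difference of -2.68 points (-4.05 to -1.27). Private mouse peaks carried RING1A at 42.5% near and 38.8% far (3.67 points, 2.07 to 5.28). They carried BMI1 at 12.6% near and 12.1% far, with an interval that spanned 0 (0.523 points, -0.537 to 1.62). Private rabbit peaks carried BMI1 at 11.0% near and 7.10% far (3.94 points, 2.86 to 5.07). H3K27me3 lay on 6.79% of the near and 1.69% of the far private mouse peaks (5.10 points, 4.40 to 5.85), but on 10.6% of the near and 9.42% of the far private rabbit peaks (1.22 points, 0.108 to 2.38).

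Seen from the other lists, EED peaks met the rabbit antibody alone more often than the mouse antibody alone. Of 13082 EED peaks, 28.9% lay on rabbit peaks only, 12.04% on mouse peaks only, 21.8% on both and 37.2% on neither. RING1A showed the opposite order, with 6.17% of 56011 peaks on rabbit only, 18.5% on mouse only and 8.54% on both. RING1B peaks lay on rabbit only at 2.89%, on mouse only at 10.6% and on both at 8.34%. BMI1 peaks lay on rabbit only at 8.81%, on mouse only at 15.2% and on both at 12.6%. H3K27me3 peaks lay on rabbit only at 4.75%, on mouse only at 1.90% and on both at 2.41%, which left 90.9% of them on neither.

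Single regions illustrate the classes. The tallest shared region by summed ranks, at chr1:121484576-121485400, had a rabbit height of 2208 and a mouse height of 1501, with an EED peak. No peak of the other 4 antibodies touched it, but their nearest peaks lay only 450 to 675 bp away. The next 4, at chr7:61968701-61969550, chr16:46403451-46403875, chr10:42599526-42599975 and chr21:9826901-9827550, each had peaks of all 5 other antibodies and lay in windows where other libraries also had very tall peaks. The mouse peak on chromosome 21 was the highest of the mouse list, with a height of 2563. No input library was analysed here, and whether these places give signal in any immunoprecipitation was not tested. Outside windows of that kind 28.1% of rabbit and 23.4% of mouse peaks were shared.

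The 3 longest shared regions were each a single rabbit peak that met 2 to 7 mouse peaks of smaller summed length. At chr16:1784976-1790725 a single rabbit peak of 5750 bp met 7 mouse peaks that summed to 3425 bp, with EED, RING1A and BMI1 peaks. At chr7:16436751-16440375 a rabbit peak of 3625 bp met 2 mouse peaks of 275 bp in all, with EED and BMI1 peaks. At chr8:145825401-145828725 a rabbit peak of 3325 bp met 5 mouse peaks of 725 bp in all, with EED, RING1A and BMI1 peaks. None of these 3 had a RING1B or H3K27me3 peak.

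The tallest rabbit peaks at least 10000 bp from any mouse peak were at chr22:51113801-51114475 (height 217), chr10:7670476-7671600 (190), chr2:27341926-27342475 (189), chr15:67224826-67225400 (189) and chr6:21924851-21925275 (186). All 5 carried an EED peak, 4 a BMI1 peak (that on chromosome 22 listed with a height of 0) and 1, on chromosome 2, a RING1A peak. None carried RING1B or H3K27me3. The tallest mouse peaks at that distance from any rabbit peak were at chr16:33963826-33964050 (height 112), chr1:149223376-149223650 (104), chr14:36277776-36278250 (100.2), chr1:145061901-145062150 (99.7) and chr16:33963101-33963350 (99.6). All 5 carried RING1A and BMI1 peaks, 4 RING1B and 2 EED. The pair on chromosome 16 also carried H3K27me3 and lay in a window with very tall peaks of other libraries.

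The antibodies also parted in single windows of 100 kb. After the X window at 30800001 to 30900000, with 12375 bp of rabbit and 0 bp of mouse peaks, the rabbit antibody led most on chromosome 8 at 143500001 to 143600000 (14900 bp rabbit, 3925 bp mouse), chromosome 7 at 2100001 to 2200000 (9625 and 1025 bp) and chromosome 16 at 88300001 to 88400000 (9825 and 1775 bp). H3K27me3 peaks covered 9100 bp of the window on chromosome 8 and 7850 bp of that on chromosome 7, but 0 bp of that on chromosome 16, where EED peaks covered 3725 bp. The mouse antibody led most on chromosome 15 at 20500001 to 20600000 (6175 bp rabbit, 14675 bp mouse), chromosome 22 at 18200001 to 18300000 (5300 and 13500 bp) and 18300001 to 18400000 (1750 and 9450 bp), and chromosome 14 at 35800001 to 35900000 (7525 and 15200 bp). RING1A peaks covered 22575, 14750, 10100 and 17850 bp of these 4 windows, and H3K27me3 peaks 125 bp of the first and 0 bp of the others. EED peaks covered 10350, 3050, 2575 and 2850 bp of the same 4 windows. In the windows where the rabbit antibody led they covered 125 bp on X, 4125 bp on chromosome 8, 1100 bp on chromosome 7 and the 3725 bp on chromosome 16, so the EED lengths of both kinds of window overlapped. The window on chromosome 15 also held 23925 bp of BMI1 and 17225 bp of RING1B peaks.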

How the data were processed

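The authors deposited 1 peak list per library, without a header, with chromosome, start, end, length, an offset, a height and a score. The submitters' processing notes name Bowtie and the build hg19, and the names of the lists carry HPeak, a peak caller. Reads had 40 nucleotides, per the labels' protocols. Whether an input library entered the calling is not stated, and depth is unknown. The deposited height was read as a signal that is never negative and was ranked within its library. Lengths are multiples of 25 bp, and chromosomes 23 and 24 were read as X and Y. The 7 control lists were used.

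Overlap meant at least 1 bp in common, and gaps count the bases in between. Heights were split into 4 equal classes per library. A 100-kb window counted as one of very tall peaks, together with both adjoining windows, where 2 or more of the other control libraries had a peak over 10 times their median height. Ratios carry exact, shares Clopper-Pearson and differences of shares Newcombe intervals at 95%. With 1 library per group no p-value was computed. The overlap counts were tested on simulated lists. The members and classes were chosen with earlier results of these data known. Regions were named by a fixed rule: the 5 tallest and 3 longest shared regions, the 5 tallest private peaks of each antibody at least 10000 bp from the other list, and the 4 windows with the widest difference each way. Alternatives were an overlap of 50%, peaks within 1000 bp, peaks cut to 200 bp, only peaks reaching the library's median height, equal numbers, merging within 1000 bp, autosomes only and no windows of very tall peaks. Wherever peaks were cut to 200 bp, peaks shorter than that were padded to 200 bp about their midpoint. Omitting chromosome 14 and omitting peaks of height 0 in the other lists were added after the data were seen. Software was Python 3.11.15 with scipy 1.17.1, numpy 2.4.6, matplotlib 3.10.9 and pandas 2.3.3.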

Additional observations from a re-analysis of the deposited data

How the results depend on the processing

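Of 109 values recomputed under an alternative, 58 moved by less than the counting error of the value reported, 50 moved by more and 1 crossed to the other side. That one was the rabbit to mouse ratio of covered length, 0.940 with peaks within 1000 bp merged. This ratio has no interval of its own and was held to the relative counting error of the ratio of number. The covered-length ratio was 1.09 with only peaks that reach the median height and 1.10 without chromosome 14. The ratio of number was 0.834 with merging and 0.824 without chromosome 14. The 17 differences between classes kept their sign under every alternative run on them. Equal numbers, only the taller peaks and merging were not among those. Within height classes, which are not counted here, the H3K27me3 difference in the rabbit list was -1.32, -0.377 and -1.42 points below the tallest class. The intervals of these values spanned 0. With 1 library per antibody and unknown depth, the number of peaks limits what can be seen. No paired analysis was possible because each group has 1 library and no test was made.

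The shared share of rabbit peaks was 27.6% with peaks cut to 200 bp, 26.8% with the taller peaks, 25.3% with equal numbers, 30.3% with merging, 27.1% without chromosome 14, 19.6% with 50% overlap and 43.9% within 1000 bp. For mouse peaks it was 22.5%, 21.7%, 25.9% and 25.2% under the first 4 of these, 18.8% with 50% overlap and 38.7% within 1000 bp. The difference between tallest and lowest class was 9.71 (rabbit) and 16.6 (mouse) points with 50% overlap, and 16.5 and 19.3 with peaks cut to 200 bp. With equal numbers the median gap was 8175 bp for private rabbit and 7750 bp for private mouse peaks. Neither the order of the gap nor that of the shared share was kept, and the intervals of the libraries overlapped for both.

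With 50% of the uH2A peak covered, shared minus private in the rabbit list was 14.6 points for EED, 33.1 for RING1A, 3.54 for RING1B and 17.1 for BMI1, in the mouse list 22.4, 16.3, 1.97 and 14.5, and 6.32 for H3K27me3 in the mouse list. Private rabbit minus private mouse was then 7.06 for EED, -21.8 for RING1A, -1.03 for RING1B and 5.63 for H3K27me3. With peaks cut to 200 bp the rabbit list had 44.0 for RING1A and 24.9 for BMI1, and the private difference was 10.6 for EED and -24.2 for RING1A. Without chromosome 14 the rabbit list had 44.9 for RING1A, 4.17 for RING1B and 24.8 for BMI1, and the private difference was -21.4 for RING1A, -0.929 for RING1B and -2.29 for BMI1. Without other antibodies' peaks of height 0 the rabbit list had 43.7 for RING1A and 24.7 for BMI1, the mouse list 19.7 and 20.2, and the private difference for RING1A was -22.3. The cause of these shifts was not tested.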
